A study of Mus musculus with 7 samples.

Results

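Fosb, Jun, Atf3, Klf4, Nr4a2, Btg2, Ier5, Zfp36 and Ptgs2 are 9 immediate early and stress-response genes. They were chosen by symbol from the 20343 genes of the count table, and all 9 were found. The table holds messenger RNA counts from the apical myocardium of 7 NSG-DR1 mice (strain label NSG-DRB1*0101). All 7 animals share that background, an immunodeficient mouse without mature lymphocytes of its own that carries a human HLA class II transgene. Hearts of 4 mice without any treatment served as controls, and hearts of 3 mice (transferred below) were collected 6 weeks after human CD4+ T cells were given. Tissue was kept in RNAlater before RNA purification. The labels used here give no age or sex of the mice, no sham transfer for the controls, and no dose or source of the human cells. The series title places the work in heart inflammation linked to ageing and terminally differentiated CD4+ T cells.

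Immediate early genes are transcribed within minutes of a stimulus from promoters that already hold activators, mainly CREB and ATF proteins and serum response factor. Their mRNAs are short-lived, so the level in a tissue reflects the time just before it was preserved. In the heart they respond to stretch, adrenergic drive, ischaemia and inflammatory signals. FosB and c-Jun form the dimeric transcription factor AP-1, ATF3 is a related stress-induced factor, and KLF4 and NR4A2 are further inducible transcription factors. BTG2, IER5 and tristetraprolin (the product of Zfp36) act as feedback regulators. Ptgs2 encodes cyclooxygenase-2, the inducible enzyme of prostaglandin synthesis.

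The promoters of 6 of these genes are shown because Jun, Atf3, Btg2 and Nr4a2 were low in the same 2 hearts, whereas Klf4 was low in 1 of these and Zfp36 was highest in the other. Fosb was low in both as well, but its window is not printed because its RefSeq start lies inside the gene as the table places it. Each window is the 250 bases before the start site in RefSeq, build GRCm38.p6, written 5′ to 3′ on the strand of the gene. Capitals mark TGACG, a partial match to the cyclic AMP response element (CRE), the AP-1 letters TGANTCA, the variant TGACATCA and the CArG box, the serum response factor element. They were searched on both strands.
Jun, chr4:95052223-95052472, minus strand: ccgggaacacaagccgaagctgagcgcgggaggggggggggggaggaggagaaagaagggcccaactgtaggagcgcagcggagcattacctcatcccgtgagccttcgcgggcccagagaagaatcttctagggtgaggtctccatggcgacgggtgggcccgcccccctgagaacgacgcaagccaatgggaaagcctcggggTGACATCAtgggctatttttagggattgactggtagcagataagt
Atf3, chr1:191183334-191183583, minus strand: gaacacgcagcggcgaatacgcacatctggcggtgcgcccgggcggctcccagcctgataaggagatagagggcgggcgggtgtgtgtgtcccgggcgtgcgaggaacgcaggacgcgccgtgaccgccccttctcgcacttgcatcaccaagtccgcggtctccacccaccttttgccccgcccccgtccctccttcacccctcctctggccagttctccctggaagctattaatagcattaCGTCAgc
Btg2, chr1:134079156-134079405, minus strand: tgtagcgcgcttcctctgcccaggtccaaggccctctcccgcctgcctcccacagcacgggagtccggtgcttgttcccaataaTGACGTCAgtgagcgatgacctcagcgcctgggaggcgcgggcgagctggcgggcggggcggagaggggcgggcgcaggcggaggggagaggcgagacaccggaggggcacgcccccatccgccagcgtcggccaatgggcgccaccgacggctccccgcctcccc
Nr4a2, chr2:57124004-57124253, minus strand: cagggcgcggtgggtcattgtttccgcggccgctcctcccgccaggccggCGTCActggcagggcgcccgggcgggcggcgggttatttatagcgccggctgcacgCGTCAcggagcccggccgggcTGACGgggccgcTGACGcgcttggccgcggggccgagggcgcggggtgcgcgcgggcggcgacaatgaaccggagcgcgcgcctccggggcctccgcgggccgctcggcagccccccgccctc
Klf4, chr4:55532476-55532725, minus strand: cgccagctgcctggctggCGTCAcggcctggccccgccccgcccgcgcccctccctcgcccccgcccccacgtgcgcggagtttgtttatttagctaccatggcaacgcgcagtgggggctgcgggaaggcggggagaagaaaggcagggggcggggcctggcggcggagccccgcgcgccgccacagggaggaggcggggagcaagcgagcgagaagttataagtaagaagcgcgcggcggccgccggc
Zfp36, chr7:28379229-28379478, minus strand: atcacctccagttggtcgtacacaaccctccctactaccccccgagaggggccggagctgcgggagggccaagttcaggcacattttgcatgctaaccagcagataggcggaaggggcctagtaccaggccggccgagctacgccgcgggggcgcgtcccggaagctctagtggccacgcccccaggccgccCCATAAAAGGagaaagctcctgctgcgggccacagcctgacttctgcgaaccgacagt

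The partial CRE TGACG was found in 5 of the 9 windows (Fosb, Atf3, Klf4, Nr4a2 and Btg2), against 17.8% of 32851 promoter windows of the same length. In Fosb it lay 60 to 56 bases before the RefSeq start, inside the gene as annotated for the counts. In Atf3 it lay 7 to 3 bases before the start. Nr4a2 held 4 copies. The longer TGACGT was in 2 of the 9, Atf3 and Btg2, and in 6.47% of all windows. In Btg2 it was part of the full palindrome TGACGTCA, 166 to 159 bases before the start, which 1.55% of all windows held and no other of the 9 did. The variant TGACATCA was searched because it is known as an ATF-like site of Jun. Its match in Jun, 45 to 38 bases before the start, is therefore no result. It was in none of the other windows of the 9 and in 2.93% of all windows. The CArG box occurred in Zfp36, 58 to 49 bases before the start, and in 1.47% of all windows. TGANTCA was in none of the 9 windows and in 6.75% of all. The windows of Ier5 and Ptgs2 matched none of these letters. The 9 windows were 60.0% to 80.0% G and C, and base composition alone changes how often such letters occur. These matches describe letters and not occupied sites.

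No difference between transferred and control hearts passed the threshold in any of the 9 genes. The group means of Zfp36 and Ier5 lay farther apart than the larger of their SDs, and those of the other 7 did not. In the edgeR quasi-likelihood test, 0 of 9 had a Benjamini-Hochberg adjusted p under 0.05, where 0.235% of all 7667 tested genes did (0.13% higher and 0.104% lower in transferred hearts). At that share, 0 of 9 says nothing particular about these genes. At an unadjusted p under 0.05 there was 1 gene, Zfp36, which was higher, against 12.4% of all tested genes (7.17% higher and 5.27% lower). DESeq2 and limma-voom also called 0 of the 9, where they called 252 and 0 of all 7667 tested genes. Each had 1 of the 9 at an unadjusted p under 0.05, against 12.9% and 11.8% of all tested genes. The groups overlapped in CPM (counts per 1000000 of the TMM-scaled column total) for every one of the 9, whereas 11.2% of all tested genes did not overlap. All 9 passed the expression filter. The median log2 fold change of the 9 was 0.25, beside -0.002 over all tested genes. By sign 8 were higher in transferred hearts, where 49.7% of all tested genes were. Signs and median moved with the hearts included. Without transferred heart 1, 4 of 9 were higher with a median of -0.03, and without control heart 1, 5 of 9 with a median of 0.08. Without both, in the 5 hearts whose source names lack a letter prefix, 4 of 9 were higher with a median of -0.24. Without control heart 4 the median was 0.09, and without transferred heart 3 it was 0.14, with 7 of 9 higher in each case. Without control heart 2, control heart 3 or transferred heart 2, 9 of 9 were higher, with medians of 0.21, 0.24 and 0.33. With all hearts limma-voom gave a median of 0.11.

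**Figure D1:**
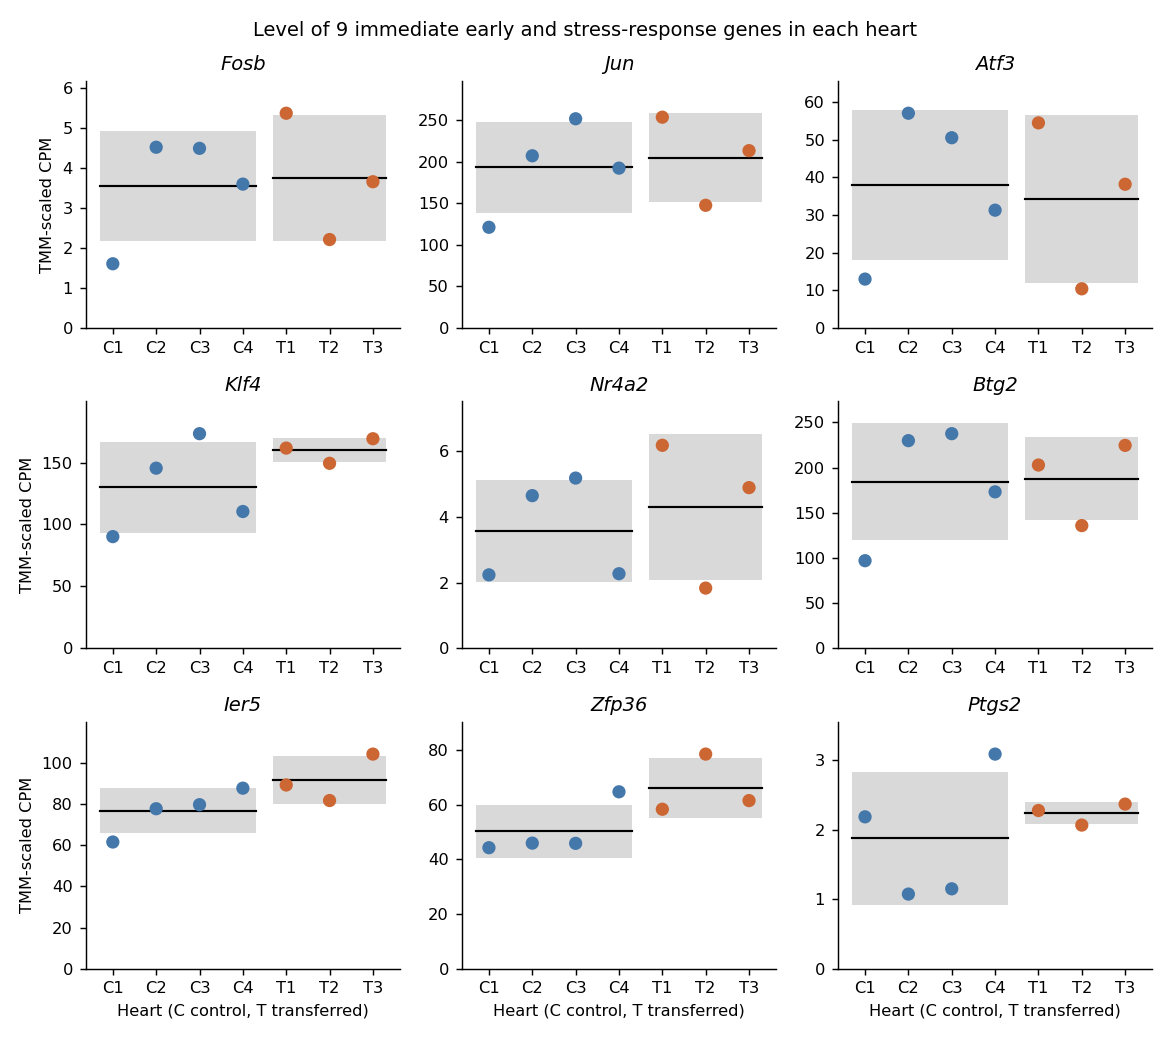
TMM-scaled CPM (vertical axis, from 0) of each gene in each heart, control hearts C1 to C4 and transferred hearts T1 to T3; lines are group means and grey bands are ± 1 SD. The groups overlap in all 9 panels, and heart C1 is the lowest of the 7 in 6 of them.

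Levels between genes were compared as CPM per kilobase of combined exons. In control hearts Jun was at 60.6 ± 17.0 CPM per kb (SD, n = 4) and Btg2 at 59.8 ± 21.1. Klf4 followed at 42.7 ± 12.1, Zfp36 at 28.4 ± 5.50, Ier5 at 23.4 ± 3.35 and Atf3 at 19.2 ± 10.1 CPM per kb. Fosb, at 0.923 ± 0.355, Nr4a2, at 0.912 ± 0.395, and Ptgs2, at 0.421 ± 0.214 CPM per kb, were the scarcest. Of neighbours in this order, Klf4 and Zfp36, Atf3 and Fosb, and Nr4a2 and Ptgs2 differed by more than the larger SD of the pair, and the other neighbours did not. In transferred hearts, from 64.3 ± 16.8 CPM per kb (SD, n = 3) for Jun to 0.502 ± 0.0347 for Ptgs2, the order was the same except that Nr4a2, at 1.09, stood above Fosb, at 0.973.

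Among the AP-1 genes, Fosb (chromosome 7, 19302696 to 19310118) was measured at 1.60, 4.52, 4.49 and 3.60 CPM in control hearts 1 to 4. In the transferred hearts it was at 5.37, 2.21 and 3.66 CPM. Control heart 1 and transferred heart 2 were low, and each group held both low and high hearts. The log2 fold change was 0.07 with a 95% interval of -0.80 to 0.94 (edgeR adjusted p = 0.964). Only 33 counts lay behind its lowest value, a counting SD of 0.25 on the log2 scale, which is smaller than the SD of 0.68 between control hearts.

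Jun (chromosome 4, 95049036 to 95052222) is a gene without introns whose protein pairs with FOS proteins. Its control values were 121.2, 207.3, 251.8 and 192.4 CPM, and its transferred values 253.7, 147.6 and 213.4 CPM. The same hearts were low as for Fosb, and transferred heart 1 was again the highest. Between groups it differed by 0.08 on the log2 scale, with an interval of -0.51 to 0.68 (edgeR adjusted p = 0.929).

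Atf3 (chromosome 1, 191170296 to 191183333) varied most of the 9. It stood at 12.98, 57.1, 50.6 and 31.3 CPM in control hearts and at 54.5, 10.4 and 38.2 CPM in transferred hearts. The highest heart, control heart 2, exceeded the lowest, transferred heart 2, by 5.49 times, and both extremes of the transferred group lay close to the extremes of the controls. Its log2 fold change was -0.15 (edgeR adjusted p = 0.957). The interval ran from -1.80 to 1.50 and so holds changes of more than 2-fold in either direction.

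Of the other transcription factors, Klf4 (chromosome 4, 55527137 to 55532475), a zinc finger factor of endothelial and smooth muscle cells and of macrophages, had control values of 90.2, 145.5, 173.3 and 110.5 CPM. Its transferred values were 161.7, 149.4 and 169.2 CPM. All 3 transferred hearts lay above 3 of the 4 controls but below control heart 3. The log2 fold change was 0.30, with an interval of -0.14 to 0.74 (edgeR adjusted p = 0.592). The SD of log2 CPM was 0.42 over control hearts and 0.09 over transferred hearts, and that difference in spread was not tested.

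Nr4a2 (chromosome 2, 57106830 to 57124003), an orphan nuclear receptor induced by cyclic AMP, was at 2.24, 4.65, 5.18 and 2.27 CPM in control hearts. In transferred hearts it was at 6.18, 1.83 and 4.89 CPM, so the highest and the lowest heart of all 7 were both transferred. The log2 difference was 0.25 with an interval of -0.74 to 1.23 (edgeR adjusted p = 0.868). Fractional counts were present in 3 of 7 hearts, and its annotation overlaps LOC105244150 on the same strand, which held between 0 and 11 counts. How reads were divided between these overlapping genes cannot be told from the table.

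The feedback regulators fell into a wide and a narrow pattern. Btg2 (chromosome 1, 134074865 to 134079155), an anti-proliferative adaptor of the CCR4-NOT deadenylase, was at 97.01, 229.9, 237.6 and 173.2 CPM in control hearts. It was at 202.9, 135.8 and 224.6 CPM in transferred hearts, and the low hearts were those that were low for Fosb and Jun. Its log2 fold change was 0.03, with an interval of -0.72 to 0.77 (edgeR adjusted p = 0.984).

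Ier5 (chromosome 1, 155096367 to 155099636), an activator of the heat shock factor HSF1, was at 61.6, 77.7, 79.7 and 87.7 CPM in control hearts and at 89.2, 81.7 and 104.3 CPM in transferred hearts. Transferred heart 2 lay below control heart 4, which kept the groups from separating. The log2 difference was 0.26, with an interval of -0.02 to 0.54 (edgeR adjusted p = 0.445). This was the narrowest interval of the 9, and it ends below a log2 change of 1.

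Zfp36 (chromosome 7, 28376784 to 28379228) encodes tristetraprolin, which binds AU-rich elements of cytokine mRNAs and of Ptgs2 mRNA and speeds their decay. Its control values were 44.3, 45.9, 45.8 and 64.7 CPM, and its transferred values 58.3, 78.5 and 61.5 CPM. All transferred hearts exceeded 3 of the 4 controls, and control heart 4 exceeded 2 of the 3 transferred hearts. The log2 fold change was 0.40 with an SE of 0.15 and an interval of 0.06 to 0.74 (edgeR adjusted p = 0.320). Without control heart 4 it was 0.54 (edgeR adjusted p = 0.139), and without transferred heart 2 it was 0.26 (edgeR adjusted p = 0.685). The adjusted p lay between 0.139 and 0.685 over 19 alternatives.

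Macrophages and neutrophils also express Zfp36. The summed level of 8 macrophage markers was 495, 485, 407 and 603 CPM in control hearts 1 to 4. In transferred hearts 1 to 3 it was 977, 1064 and 731 CPM. Of these 8, 2 passed the edgeR threshold and 8 had an unadjusted p under 0.05. Within each group the sum and Zfp36 were highest in the same heart, control heart 4 and transferred heart 2. Transferred heart 1 had a larger sum than control heart 4 and transferred heart 3. Its Zfp36 value was lower, at 58.3 CPM against 64.7 and 61.5 CPM. The sum of 6 neutrophil markers was 8.94 to 12.1 CPM in control hearts and 12.2, 259.9 and 36.7 CPM in transferred hearts 1 to 3. None of the 5 neutrophil markers tested passed in edgeR, all 5 had an unadjusted p under 0.05, and transferred heart 1 was at the level of the controls. The part of these cells in the Zfp36 values was not tested, and in whole tissue a change in the number of cells and in the RNA per cell cannot be told apart. Summed cardiomyocyte markers lay at 119498 to 141894 CPM in control hearts and 118495 to 145059 CPM in transferred hearts. Fibroblast, smooth muscle and pericyte, and T cell sums overlapped between the groups as well. Of 8 endothelial markers 1 passed, lower, and at an unadjusted p under 0.05, 2 were higher and 2 lower. The 4 adipocyte markers in the table summed to at most 1.16 CPM.

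Ptgs2 (chromosome 1, 150100031 to 150108234), the effector enzyme, was scarce, with 25 to 49 counts per heart. It was at 2.19, 1.08, 1.15 and 3.09 CPM in control hearts and at 2.28, 2.07 and 2.37 CPM in transferred hearts. Here control hearts 2 and 3, which were high for the AP-1 genes, were the lowest. The log2 fold change was 0.28, with an interval of -0.57 to 1.13 (edgeR adjusted p = 0.83). The counting SD at 25 counts was 0.29 on the log2 scale, against an SD of 0.70 between control hearts and 0.10 between transferred hearts.

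**Figure D2:**
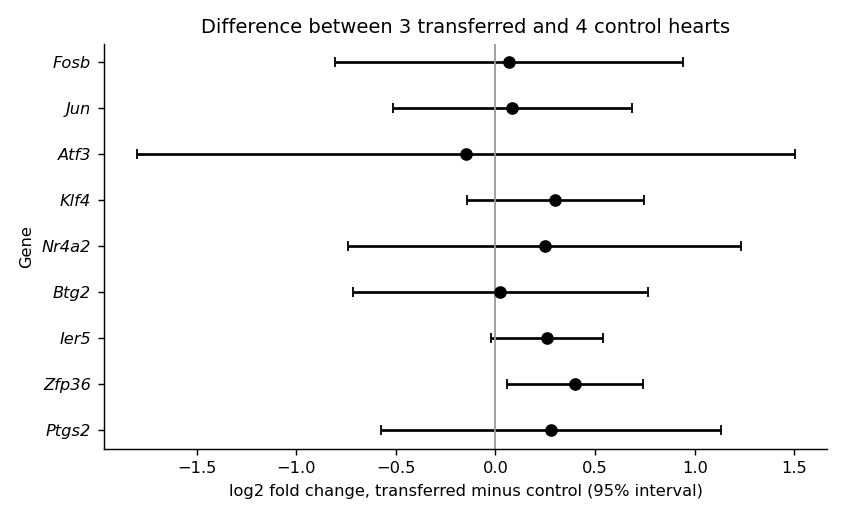
Log2 fold change of transferred over control hearts (horizontal axis) for each gene, with 95% intervals from the edgeR quasi-likelihood fit. The interval of Zfp36, 0.06 to 0.74, leaves out 0, its adjusted p is 0.320, and the other 8 intervals include 0.

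With all 4 control hearts included, the 9 genes differed more within the control group than most genes. The SD of log2 CPM over the 4 control hearts was above the median of all tested genes, 0.158, in 9 of 9, and its median over the 9 was 0.598. Atf3 (0.97), Ptgs2 (0.70), Fosb (0.68), Nr4a2 (0.63) and Btg2 (0.60) were in the top 10% of tested genes. Jun stood at the 88.1th percentile, Klf4 at 86.5, Zfp36 at 71.9 and Ier5 at 64.7. For Fosb, Ier5, Btg2, Jun and Atf3 much of this spread came from control heart 1. Its gap to the next control heart took shares of 0.777, 0.658, 0.647, 0.632 and 0.594 of their control ranges in log2 CPM. The SD without that heart was not computed. Counting SDs on the log2 scale, at the lowest count of each gene, ranged from 0.0289 for Jun to 0.289 for Ptgs2.

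In all 9 genes the highest control heart exceeded the lowest by more than the group means differed, which was so for 86.0% of all tested genes. For Btg2 the control hearts spanned 2.45-fold while the group means differed by 1.02-fold. For Atf3 these ratios were 4.40 and 0.905, and for Zfp36 they were 1.46 and 1.32. The spread between transferred hearts gave another order, with Atf3 at an SD of 1.25 and Nr4a2 at 0.90 on the log2 scale. Klf4, Ptgs2 and Ier5, at 0.09, 0.10 and 0.178, were below the median of 0.179 over all tested genes there.

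**Figure D3:**
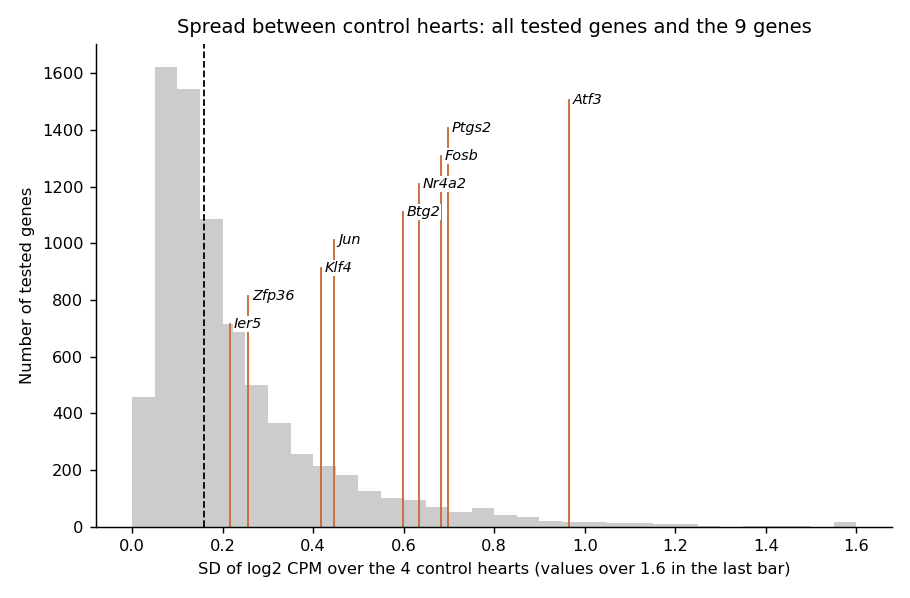
Histogram of the SD of log2 CPM over the 4 control hearts for 7667 tested genes (grey), with the median as a dashed line and the 9 genes as labelled lines whose heights carry no value. All 9 lie to the right of the median of 0.158, and Atf3 is farthest right at 0.97.

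The hearts that were low were largely shared. Control heart 1 was the lowest control heart for 8 of the 9 genes, all but Ptgs2, whereas it was the lowest control heart for 25.3% of all tested genes. Transferred heart 2 was the lowest of its group for 8 of the 9, all but Zfp36, against 30.8% of all tested genes. Transferred hearts 1 and 3 each lay above the median of the 7 hearts for 7 of the 9 genes, and control heart 1 for 0. Control heart 3 lay above it for 6. The genes are not independent observations of a heart, so these counts describe 7 libraries and are not a test.

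**Figure D4:**
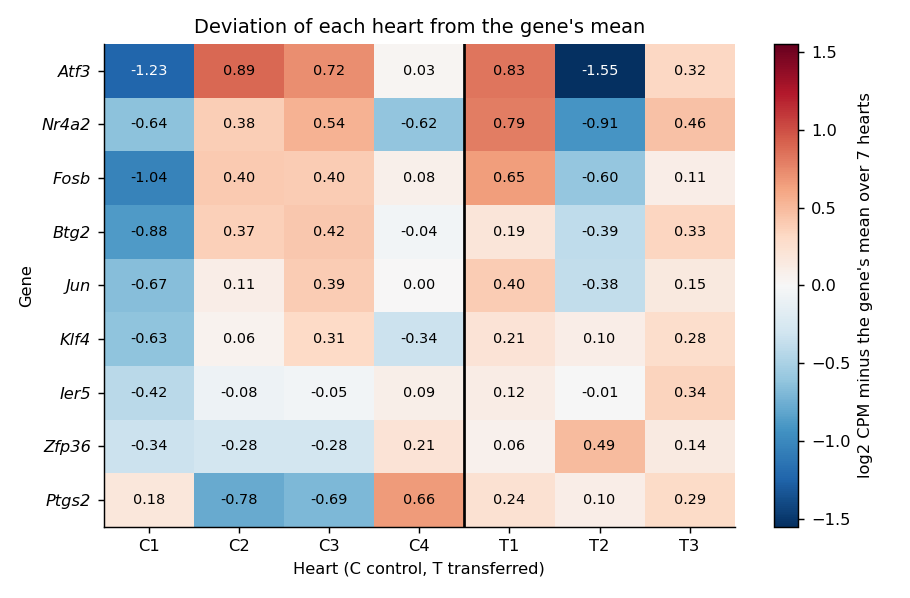
Heat map of log2 CPM minus the gene's mean over the 7 hearts (colour and printed value), for control hearts C1 to C4 and transferred hearts T1 to T3. Atf3, Nr4a2, Fosb, Btg2 and Jun are below their means in C1 and T2, and Zfp36, Klf4 and Ptgs2 are above theirs in T2.

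Globin and column totals followed this order in part. Hbb-bs and Hbb-bt, which encode beta globin of red blood cells, summed to 14679 and 13106 CPM in control heart 3 and transferred heart 1, and to 6492 CPM in control heart 2. In control hearts 1 and 4 the sum was 3982 and 4082 CPM, and in transferred hearts 2 and 3 it was 2736 and 3250 CPM. Transferred heart 3, which was among the high hearts, thus had less globin than control heart 1, the lowest. Control hearts 2 and 3 also had the largest column totals, 23623947 and 25190580 counts, and control heart 4 the smallest, 16402194. The other 4 held 19334469 to 20974338 counts, and 3 counts amounted to 0.115 to 0.189 CPM. The part of residual blood or depth in the order of the hearts was not tested.

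The labels record no batch, but control heart 1 and transferred heart 1 have source names with a letter prefix and the other 5 have numbers alone. Within the 5 hearts with numbers alone the log2 fold change was -0.52 for Fosb, -0.26 for Jun, -0.93 for Atf3, -0.27 for Nr4a2 and -0.24 for Btg2, against pooled values of 0.07, 0.08, -0.15, 0.25 and 0.03. For Klf4, Ier5, Zfp36 and Ptgs2 it was 0.16, 0.19, 0.44 and 0.37. None passed the edgeR threshold there, and the lowest adjusted p was 0.355, for Zfp36. With all 7 hearts and the prefix as a covariate, the log2 fold change was 0.11 for Fosb, 0.12 for Jun, -0.11 for Atf3, 0.22 for Nr4a2 and 0.14 for Btg2, and 8 of 9 were higher, as without the covariate. The 2 hearts with the prefix, 1 of each group, gave no test, and as a ratio their values above differ most for Atf3, at 12.98 and 54.5 CPM.

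The nearest profiles were sought over all 7666 other tested genes, as the root mean square difference of log2 CPM after centring each gene on its mean over 7 hearts. Slc25a25, a mitochondrial ATP-magnesium and phosphate carrier, was among the 2 nearest to Fosb (0.17), Jun (0.16) and Nr4a2 (0.27). It was at 18.3, 39.1, 39.1 and 25.8 CPM in control hearts and 43.3, 20.4 and 32.4 CPM in transferred hearts. Jun was the second nearest gene to Btg2 (0.17), and Fosb the second nearest to Atf3 (0.44). The AP-1 subunit Fosl2 was nearest to Nr4a2 (0.27), and Errfi1, a feedback inhibitor of the EGF receptor, was nearest to Btg2 (0.14).

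The other neighbours were Gm10603 for Fosb, 4631405J19Rik for Jun, Ptprv for Atf3, and Fsbp and Id1 for Klf4. Asl and Slc2a10 were nearest to Ier5, Gbgt1 and Slc1a5 to Zfp36, and Reln and Epha1 to Ptgs2. No neighbour passed the edgeR threshold, with adjusted p-values from 0.414 to 0.964. The closest pair within the 9 was Jun and Btg2, at 0.17, and the most distant was Atf3 and Ptgs2, at 1.21.

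Related genes were taken from 6 lists, of which 75 genes fell on the analysed chromosomes and 72 were tested, 9 of them the genes above. Of the 72, 1 passed the edgeR threshold, beside 0.235% of all tested genes, and 9 (12.5%) had an unadjusted p under 0.05, close to the 12.4% of all tested genes. Among AP-1 subunits and bZIP partners 0 of 7 passed, with a median log2 fold change of 0.08. Atf2 and Mafk had log2 fold changes of 0.17 and -0.08 (edgeR adjusted p = 0.520 and 0.816). With 1 heart left out, Atf2 ran from 0.10 without transferred heart 2 to 0.21 without control heart 1, and Mafk from -0.15 without transferred heart 1 to -0.03 without control heart 2.

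Among other immediate early genes 1 of 18 passed, higher, and the median was 0.12. At an unadjusted p under 0.05, 2 were higher and 1 was lower. The gene that passed was Rgs2, a brake on Gq-coupled receptor signalling, which rose by 0.77 on the log2 scale (edgeR adjusted p = 0.0384). Its control hearts lay between 46.5 and 49.9 CPM, and its transferred hearts were at 70.2, 97.4 and 78.1 CPM. Rgs2 also differed from the 9 in its control SD of log2 CPM, 0.04, and it lost the threshold in 8 of 19 alternatives. These were limma-voom, the prefix covariate, the hearts with numbers alone, and leaving out any 1 of the control hearts or transferred heart 2. Its adjusted p lay between 6.1e-07 and 0.157 over all 19, and its log2 fold change between 0.63 and 0.88. The other higher gene was Dusp2, a MAP kinase phosphatase, which was higher by 0.94 on the log2 scale (edgeR adjusted p = 0.376). Dusp2 was scarce, at 0.63 to 1.01 CPM in control hearts and 0.81, 2.21 and 1.24 CPM in transferred hearts, and the groups overlapped. The lower gene was Gadd45a, a stress-induced regulator of growth arrest. Both are named after their values were seen. Gadd45a was at 32.97, 37.8, 40.3 and 33.1 CPM in control hearts and at 24.7, 26.1 and 23.9 CPM in transferred hearts, with no overlap. Its log2 fold change was -0.54 (edgeR adjusted p = 0.0702), and it passed with DESeq2 and with all genes of at least 1 count. Ccn1, a matricellular protein gene also named after its values were seen, had a log2 fold change of -0.49 and no overlap (edgeR adjusted p = 0.411).

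Irs2, Nr4a3 and Bhlhe40, named here after their values were seen, also varied widely. Irs2, an insulin receptor substrate, ran from 23.4 CPM in control heart 1 to 221.3 CPM in control heart 2, and from 28.97 to 148.5 CPM over transferred hearts. Nr4a3, another receptor of the NR4A family, was at 8.22, 73.98, 47.4 and 16.2 CPM in control hearts and at 54.7, 11.9 and 21.99 CPM in transferred hearts. Control heart 1 was low and control heart 2 high for both, and their control SDs of 1.41 and 1.44 on the log2 scale were in the top 1% of tested genes. Bhlhe40, a circadian and stress-induced repressor, spanned 74.6 to 265.8 CPM over control hearts but 204.8 to 227.9 CPM over transferred hearts, an order like that of Klf4.

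**Figure D5:**
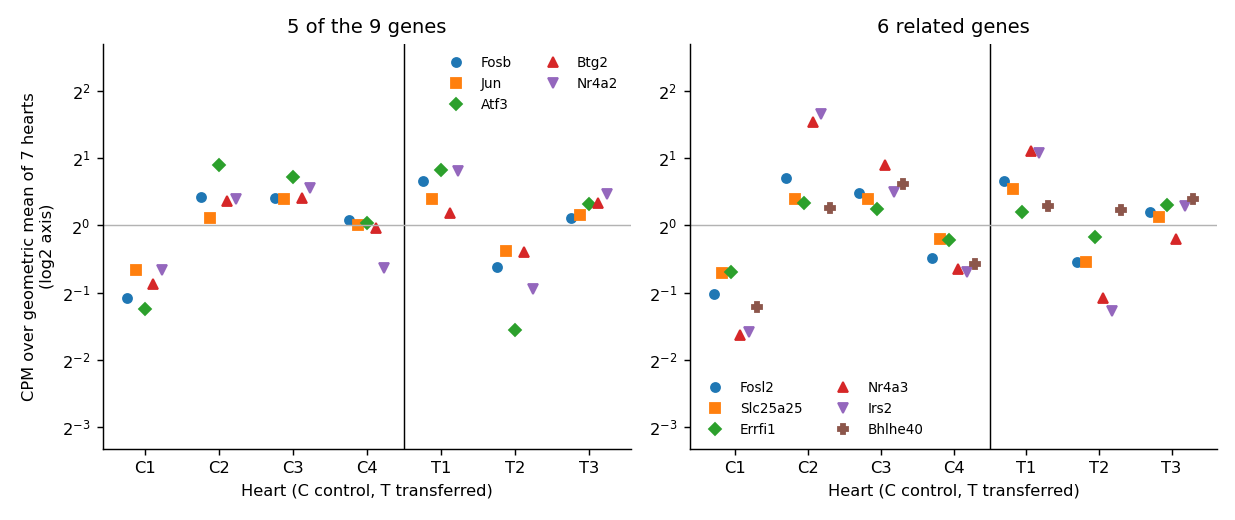
CPM divided by the geometric mean of the 7 hearts (log2 axis) for 5 of the 9 genes (left) and 6 related genes (right), in control hearts C1 to C4 and transferred hearts T1 to T3; points are offset sideways so that they can be told apart. All 5 genes on the left are below their mean in C1 and T2, as are the related genes except Bhlhe40 in T2; the 6 were chosen for like profiles or after their values were seen, so the likeness is no result.

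Among mRNA decay and anti-proliferative feedback genes 0 of 11 passed, with Zfp36 as the 1 at an unadjusted p under 0.05. The median log2 fold change was 0.04 and the median control SD of log2 CPM 0.10, lower than the 0.41 of the other immediate early genes. Cnot6l, a deadenylase subunit, had a log2 fold change of 0.15 and Zc3h12a, the endonuclease regnase-1, one of 0.21 (edgeR adjusted p = 0.525 and 0.648). Without transferred heart 2 Cnot6l was at 0.07, and Zc3h12a ran from 0.10 without transferred heart 3 to 0.36 without transferred heart 1. Among prostanoid synthesis and receptor genes 0 of 13 passed, 2 had an unadjusted p under 0.05, both higher, and the median was 0.20. Tbxas1, thromboxane synthase, was at 6.04 ± 1.12 CPM (SD, n = 4) and 9.75 ± 2.80 CPM (SD, n = 3), with an edgeR adjusted p of 0.243. Hpgds, the haematopoietic prostaglandin D synthase, ran from 6.56 to 7.93 CPM over control hearts and from 7.24 to 13.2 CPM over transferred hearts (edgeR adjusted p = 0.344). Ptgs1, the constitutive cyclooxygenase, differed by 0.23 on the log2 scale (edgeR adjusted p = 0.558). Without transferred heart 2 the log2 difference of Tbxas1 was 0.46 in place of 0.70, that of Hpgds 0.26 in place of 0.51, and that of Ptgs1 0.06. Tbxas1, Hpgds and Ptgs1 are known from macrophages and other blood cells. The sums of macrophage and neutrophil markers are given with Zfp36 above, and their part in these values was not tested.

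Among integrated stress response and unfolded protein response genes 0 of 13 passed, 1 had an unadjusted p under 0.05, and the median was 0.15. Chac1, a glutathione-degrading ATF4 target, was at 4.18, 6.67, 7.75 and 4.29 CPM in control hearts and 16.9, 20.1 and 3.90 CPM in transferred hearts. Transferred heart 3 was the lowest of all 7, and without it Chac1 passed the threshold (log2 fold change 1.68, edgeR adjusted p = 0.0228), against 1.24 and 0.360 with all hearts. Without transferred heart 2 its log2 fold change was 0.85 (edgeR adjusted p = 0.70), and within the 5 hearts with numbers alone it was 0.95 (edgeR adjusted p = 0.601). Asns, asparagine synthetase, reached 20.9 CPM in transferred heart 1 and lay between 3.88 and 6.75 CPM in the other 6. Its log2 fold change of 1.13 (edgeR adjusted p = 0.406) was 0.15 without that heart. Trib3, another ATF4 target, was likewise highest there, at 29.8 CPM, and its log2 fold change of 0.69 (edgeR adjusted p = 0.409) was 0.16 without it.

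Among heat shock and chaperone genes 0 of 10 passed, and 1 had an unadjusted p under 0.05, lower. By sign all 10 were lower in transferred hearts, with a median log2 fold change of -0.14. Hspa4l, an HSP110 chaperone, was at 198.5 ± 13.8 CPM (SD, n = 4) and 164.1 ± 17.0 CPM (SD, n = 3), with no overlap between groups (edgeR adjusted p = 0.264). Hspe1 and Bag3 had log2 fold changes of -0.17 and -0.21 (edgeR adjusted p = 0.550 and 0.733). With 1 heart left out, Hspe1 ran from -0.30 without transferred heart 1 to -0.10 without transferred heart 2, and Bag3 from -0.39 to -0.06 without the same hearts. Genes of a list are not independent of each other.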

How the data were processed

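Polyadenylated RNA of 7 hearts was measured by RNA sequencing. The authors deposited expected counts per gene, not normalized; 4.63% of values had a fractional part, so they were treated as estimated counts and rounded. The submitters' processing notes name bcl2fastq 2.20.0.422, cutadapt 2.5, STAR 2.7.2b, featureCounts 1.6.4 and DESeq2 1.22.2 with GRCm38.p6; their settings are not given in the sources used here. Per the file headers, the deposited table also gives the combined exon length of each gene. The 20343 complete rows cover chromosomes 1 to 7 and chromosome 8 up to 25129815, and 1 unfinished row was left out. Genes elsewhere are not analysed here, so column totals are not library depths, and scaling factors come from this part of the table. All 20343 gene identifiers had the same chromosome and lower coordinate in RefSeq. For genes on the minus strand that coordinate is the end of the gene.

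Genes were filtered with filterByExpr, scaled by TMM and tested with the robust quasi-likelihood test of edgeR 4.0.16 in R 4.3.3. Benjamini-Hochberg adjustment ran over 7667 genes, with 0.05 as the threshold. Standard errors and 95% intervals came from the F statistic. Log2 CPM used a prior count of 2. The alternatives used other scalings, filters, DESeq2 1.42.0, limma-voom (limma 3.58.1), no robust estimation, the identifier prefix, and left-out hearts. Unrounded counts and the newer quasi-likelihood method were added after seeing the data. On simulated counts for 7575 genes of this comparison, 79.8% of genes changed 2-fold and 92.7% of genes changed 4-fold were recovered, and 2.89% of calls were false. The changed genes were drawn at random from the tested genes. These shares are thus not those of the 9 genes, whose spread between control hearts was above the median. The members and lists were chosen with earlier results of these data known. Named list genes are those past the threshold, or the 3 with the smallest p in a list. A gene that this rule also names is not reported here. Counting SDs and floors cover counting error only, because no molecular identifiers mark duplicate reads.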

Additional observations from a re-analysis of the deposited data

Results flagged for a closer look

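Each of the 9 genes was checked for a control heart far from the other 3. For Zfp36, control heart 4, at 64.7 CPM, stood apart from the others, at 44.3 to 45.9 CPM. Its gap took a share of 0.903 of the group's range in log2 CPM, above the critical value of Dixon's test at 95% for 4 samples. Chance gives about 1 such gene in 20, or 0.45 among the 9.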

How the results depend on the processing

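The number of the 9 genes past the threshold was 0 in all 19 alternatives. The number whose groups did not overlap was 0, and from 0 to 2 when 1 heart was left out. Smaller groups separate more easily, and the share of all tested genes was not counted with a heart left out. The 11.2% found with all 7 hearts is therefore no measure for these counts. The number of listed genes past the threshold, 1 (Rgs2), was 2 with all genes of at least 1 count and 2 with DESeq2, where Gadd45a was added. It was 0 with limma-voom, 0 with the prefix covariate, 0 without the hearts with a letter prefix, and 0 to 2 when 1 heart was left out; at an unadjusted p under 0.05 there were 7, 9 and 17 in the first 3 of these, or 9.72%, 12.5% and 23.6% of those tested, where all tested genes gave 11.8%, 12.7% and 13.6%. Over all tested genes the count of 18 was 0 to 140 with 1 heart left out, 252 with DESeq2 and 0 with limma-voom.

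Klf4, Ier5, Zfp36 and Ptgs2 kept their sign in all 19 alternatives, and the other 5 did not. With 1 heart left out, Klf4 ran from 0.16 (without control heart 1) to 0.47 (without control heart 3), Ptgs2 from 0.08 (without control heart 2) to 0.61 (without control heart 4), Ier5 from 0.16 (without transferred heart 3) to 0.34 (without transferred heart 2), and Zfp36 from 0.26 to 0.54. Without the hearts with a letter prefix the log2 fold change was -0.52 for Fosb, -0.26 for Jun, -0.27 for Nr4a2 and -0.24 for Btg2. Without control heart 1 it was -0.17 for Fosb, -0.08 for Jun and -0.18 for Btg2. Without transferred heart 1 it was -0.28 for Fosb, -0.10 for Jun, -0.11 for Nr4a2 and -0.03 for Btg2. Atf3 reversed to 0.12 without control heart 2, 0.02 without control heart 3 and 0.28 without transferred heart 2. Btg2 was -0.004 without control heart 4 and -0.12 without transferred heart 3. With 1 heart left out, the values reached 0.34 for Fosb, 0.27 for Jun, 0.61 for Nr4a2 and 0.21 for Btg2 (each without transferred heart 2) and -0.65 for Atf3 (without transferred heart 1). The cause was not tested. The titles of control heart 1 and transferred heart 1 share the number h1, but the labels do not say that any animals were paired. No paired analysis was run for that reason, and the numbers used here follow accession order.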
